A study of Mus musculus with 8 samples.

Results

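The genes described here mark the endothelial cells of brain vessels, and were followed in the nucleus accumbens of mice that had received cocaine or saline. The 10 were chosen by symbol in the array's probe annotation: Cldn5, Pecam1, Flt1, Kdr, Tek, Cdh5, Esam, Eng, Slco1c1 and Ly6c1. All 10 were measured, by 18 of the 32042 probes that carry 1 gene symbol, among 19087 genes with a symbol. The cocaine group was male mice that went through conditioned place preference, a procedure with cocaine (15 mg per kg) injected on day 2, day 3 and day 4, in which a place is paired with an injection. The saline group was male mice given saline on the same days of the same procedure. The sources used here give neither strain nor age, nor the time between the last injection and dissection. Each of 4 hybridisations set cocaine RNA against saline RNA on a 2-colour array, with cocaine in Cy5 in 2 of them (cocaine in Cy5, replicates 1 and 2) and saline in Cy5 in the other 2 (saline in Cy5, replicates 1 and 2). Each was scanned on an Axon and on an Agilent scanner, and the 2 scans of a hybridisation were averaged, so n is 4 pairs. Ratios hold no levels, so whether the endothelial markers were well detected in this tissue cannot be read from them. Sample titles name 1 cocaine and 1 saline code per array, and the design text, which speaks of 5 measurements of accumbens nuclei, does not settle whether a code is 1 mouse or a pool.

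Endothelial cells line the vessel wall, and in the brain they form the blood-brain barrier, sealed by tight junctions and supplied with carriers that move chosen molecules into the tissue. Their growth and stability depend on receptor tyrosine kinases for vascular endothelial growth factors and angiopoietins and on transforming growth factor beta signalling. In this tissue they are a minority among neurons and glia. In RNA from whole tissue, fewer endothelial cells and less RNA per cell cannot be told apart.

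None of the 10 genes passed the test between cocaine and saline. After each scan was centred on its median, limma called 0 of 10 at a Benjamini-Hochberg adjusted p under 0.05, where 8 of all 31334 genes (0.0255%) were called, and 0 of 10 at an unadjusted p under 0.05, where 6.04% of all genes were. The cocaine coefficients, in log2 of cocaine over saline, lay between -0.30 for Kdr and 0.18 for Esam. Below 0 lay 7 of 10, against 43.4% of all genes, and their median was -0.06, against 0.03 over all genes. Standard errors lay between 0.171 and 0.185 over n = 4 hybridisations, so no coefficient stood more than 2 of its standard errors from 0. After centring limma drew these errors largely from the spread of all genes, not from each gene's own ratios. That the ratios run as cocaine over saline is likely, not stated: it rests on channel 1 being named first in each title and on the scanner test described with the processing.

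The dye moved most of these genes far more than the treatment did. A ratio with cocaine in Cy5 and one with saline in Cy5 should have the same sign if treatment sets it, and opposite signs if the dye does. After centring, the median of the 10 genes was 0.40 and 0.65 in the cocaine in Cy5 hybridisations and -0.66 and -0.56 in the saline in Cy5 hybridisations. For 6 of the 10 genes limma's dye coefficient had an adjusted p under 0.05, as it had for 77.9% of all genes. Of these, 5 leaned to Cy5, as 34.5% of all genes did, and Pecam1 leaned to Cy3, as 43.4% did. For that reason the 10 genes are also described after a second normalization, called dye-profile values here. In it each scan was fitted by loess along the mean Cy5 over Cy3 ratio of the 4 Agilent scans, in which treatment cancels. That profile is built from these same hybridisations and ties the 2 orientations together, so agreement between them is not independent.

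**Figure D1:**
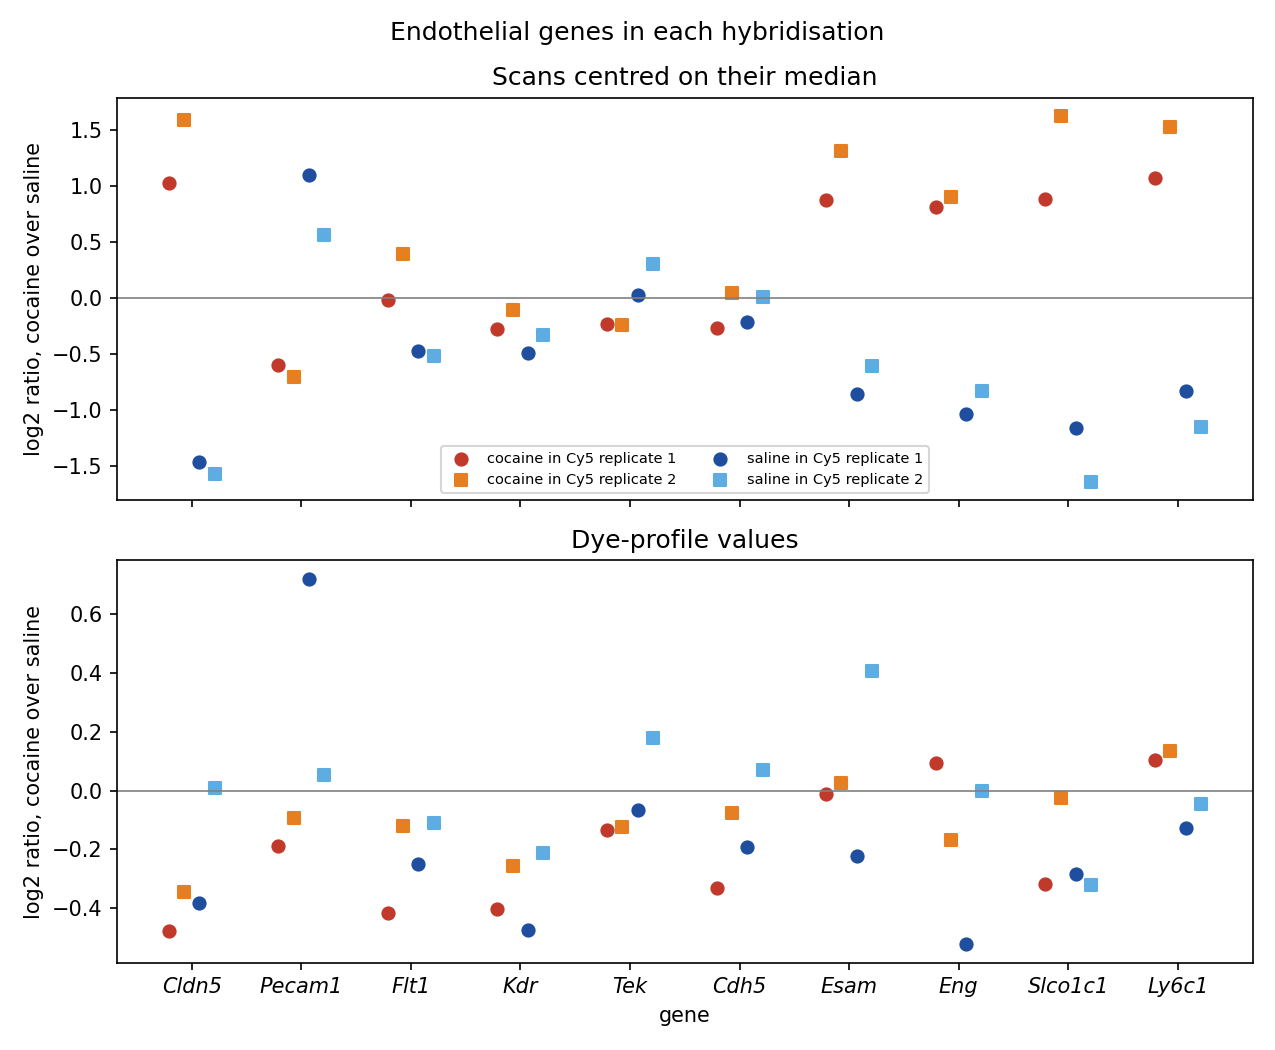
Log2 ratio of cocaine over saline of each endothelial gene (horizontal axis) in each of 4 hybridisations, after median centring (upper panel) and in dye-profile values (lower panel, with a narrower vertical axis); 1 point is the mean of 2 scans. After centring, red and orange points (cocaine in Cy5) and blue points (saline in Cy5) lie on opposite sides of 0 for Cldn5, Pecam1, Tek, Esam, Eng, Slco1c1 and Ly6c1, and in dye-profile values Flt1, Kdr and Slco1c1 lie below 0 in all 4.

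In dye-profile values limma again called 0 of 10 genes (0% of all genes were called), with a lowest adjusted p of 0.67. Of the 10, Kdr and Cldn5 had an unadjusted p under 0.05, as 7.25% of all genes did. Both were lower, as 3.8% of all genes were at that p. The median was -0.14 over the 10 genes and -0.001 over all genes, and 7 of 10 coefficients lay below 0, against 50.2% of all genes. By hybridisation the median of the 10 was -0.25 and -0.11 with cocaine in Cy5, and -0.24 and 0.004 with saline in Cy5. Thus 3 of the 4 pairs had a median below 0, and in saline in Cy5 replicate 2 it lay at 0. In dye-profile values 3 genes (Flt1, Kdr and Slco1c1) had the same sign in all 4 hybridisations, as 19.1% of all genes did, and all 3 lay below 0, as 9.48% of all genes did. After centring Kdr alone of the 10 had 1 sign throughout, where 1.84% of all genes did and 0.766% lay below 0 throughout.

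Upstream sequences could be matched for 7 of the 10 genes in RefSeq's promoter windows (GRCm38.p6). Kdr, Flt1 and Cldn5 are shown, which held 3 of the 4 lowest coefficients in dye-profile values. Slco1c1 held the other, at -0.24 below Flt1 at -0.22, and its window is not printed. The 250 bases before each annotated start run 5′ to 3′ on the gene's strand, and capitals mark GGAA on either strand (TTCC on the other), the core of sites for the ETS factors that direct endothelial transcription. They lie at chr5:75978456-75978705 on the minus strand for Kdr, chr5:147726012-147726261 on the minus strand for Flt1 and chr16:18776597-18776846 on the plus strand for Cldn5.
Kdr: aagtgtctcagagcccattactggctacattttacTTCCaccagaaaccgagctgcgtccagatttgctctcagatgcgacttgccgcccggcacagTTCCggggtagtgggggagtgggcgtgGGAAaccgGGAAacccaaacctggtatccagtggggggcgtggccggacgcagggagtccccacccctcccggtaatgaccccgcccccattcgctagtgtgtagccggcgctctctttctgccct
Flt1: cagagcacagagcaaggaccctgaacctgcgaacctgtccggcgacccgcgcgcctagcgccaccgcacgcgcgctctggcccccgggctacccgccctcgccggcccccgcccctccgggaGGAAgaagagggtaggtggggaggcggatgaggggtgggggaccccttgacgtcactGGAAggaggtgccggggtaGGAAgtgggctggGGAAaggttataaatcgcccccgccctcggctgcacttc
Cldn5: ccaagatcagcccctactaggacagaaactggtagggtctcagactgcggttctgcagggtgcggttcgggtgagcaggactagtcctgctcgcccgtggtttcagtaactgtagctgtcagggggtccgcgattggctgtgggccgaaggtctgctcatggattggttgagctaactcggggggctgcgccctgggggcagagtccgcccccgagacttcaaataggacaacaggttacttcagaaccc
GGAA occurred in 6 of the 7 genes' windows and in 93.4% of all 32851 windows, so its presence sets these genes apart from few others. Cldn5 was the one without it. The longer form AGGAAG, which overlaps GGAA, occurred in 4 of 7 genes (Flt1, Eng, Slco1c1 and Ly6c1) and in 29.5% of all windows. A GC box, GGGCGG, occurred in Cldn5, Flt1 and Kdr and in 32.7% of all windows, and the TATA box TATAAA in Flt1 and Ly6c1 and in 12.4%. The windows with a GC box are thus the ones printed, while that of Slco1c1 held 8 GGAA and no GC box. Ly6c1 had windows at different starts and counted where any of them held the motif, while the percentages are per window. Its AGGAAG and its TATAAA lay in different windows. Letters found in a window are not shown to be bound, and these ratios do not measure binding.

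Both receptors of vascular endothelial growth factor among the members had coefficients below the median of the 10. Kdr encodes VEGF receptor 2, the receptor that carries most of the growth signal in endothelial cells. Its centred ratios were -0.28 and -0.10 with cocaine in Cy5 and -0.49 and -0.33 with saline in Cy5. It was the only member below 0 in all 4 centred hybridisations. The coefficient was -0.30 ± 0.17 (SE, n = 4), a cocaine over saline ratio of 0.813 with a 95% interval of 0.634 to 1.04, and the limma adjusted p was 0.858. In dye-profile values Kdr stood at -0.40 and -0.26 with cocaine in Cy5 and at -0.47 and -0.21 with saline in Cy5. There its coefficient was -0.34 ± 0.10 (limma adjusted p = 0.67, unadjusted p = 0.02).

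Flt1 encodes VEGF receptor 1, which binds the growth factor tightly and also occurs as a soluble form that holds it away from other receptors. After centring its ratios were -0.02 and 0.40 with cocaine in Cy5 and -0.47 and -0.52 with saline in Cy5, so the orientations did not overlap. The coefficient was -0.15 ± 0.17 (limma adjusted p = 0.925). The dye-profile ratios of Flt1 were -0.42 and -0.12 with cocaine in Cy5, against -0.25 and -0.11 with saline in Cy5, all 4 below 0. Their coefficient was -0.22 ± 0.10 (limma adjusted p = 0.67).

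Single probes of these receptors did not behave alike, and after centring the lowest values came from probes annotated by cDNA clone accessions. Kdr had 2 probes. The probe for RefSeq NM_010612 had a centred cocaine coefficient of -0.08 ± 0.20, and the probe for clone AK054510 one of -0.51 ± 0.20. They also leaned to opposite dyes, with a dye profile (log2 of Cy5 over Cy3) of 1.53 for NM_010612 and -1.08 for AK054510. In the hybridisations the AK054510 probe of Kdr stood at -1.41 and -1.54 with cocaine in Cy5 and at 0.33 and 0.57 with saline in Cy5, while the NM_010612 probe stood at 0.86 and 1.33 with cocaine in Cy5 and at -1.31 and -1.22 with saline in Cy5. The average of these opposed probes is what brought all 4 Kdr ratios below 0. With its RefSeq probe alone, a choice made after the values were seen, Kdr stood at -0.08 after centring and at -0.22 in dye-profile values.

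Flt1 had 5 probes. Those that leaned to Cy5 were the 2 features for RefSeq NM_010228 and 1 for BC029674, with dye profiles of 1.62, 1.70 and 1.95. Their centred cocaine coefficients were -0.02, -0.08 and -0.07, each with a standard error of 0.20, and -0.16, -0.23 and -0.25 in dye-profile values. The other 2 leaned to Cy3, AK005502 at -1.02 and AK084177 at -1.21, and disagreed on treatment, at 0.02 ± 0.20 and -0.62 ± 0.20. Of the 18 member probes 0 passed the adjusted threshold, where 0.271% of all single probes did. After centring, AK084177 of Flt1 and AK054510 of Kdr had an unadjusted p under 0.05, as 6.12% of all single probes did, with limma adjusted p = 0.266 and 0.569. In dye-profile values these and the Cldn5 probe did, 3 of 18, where 7.42% of all single probes did and 0% passed after adjustment. The 2 scans of the AK084177 spot lay far apart in cocaine in Cy5 replicate 1, at -3.11 on the Axon scanner and -0.97 on the Agilent scanner. In saline in Cy5 replicate 1 they lay about as far apart and on opposite sides of 0, at -0.79 and 1.27.

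The 18 probes were also set side by side by accession. A dye effect passed for 16 of them, against 79.2% of all single probes, and 10 leaned to Cy5, against 38.5%. Of the 12 member probes with a RefSeq accession, 10 had a dye profile above 0, with a median of 1.48, where 61.7% of all RefSeq-accession probes lay above 0, with a median of 0.68. Of the 6 with another accession, 1 (BC029674 of Flt1) had one above 0, and their median was -1.02, where 43.1% of all such probes lay above 0, with a median of -0.31. For scale, the median dye profile was 1.90 over 128 ribosomal protein probes, whose genes every cell transcribes, and -0.97 over 976 olfactory receptor probes, whose genes are silent in most tissues. Over the array, 3754 genes had probes of both kinds, and the RefSeq probes leaned more to Cy5 in 68.7% of them, with a median difference of 0.55. The differences were 2.61 for Kdr, 1.75 for Flt1, 0.95 for Pecam1 and 0.83 for Tek. Whether the clone probes sit in transcripts of these genes was not tested, since the probe sequences were not used here, and a gene average mixes both kinds.

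**Figure D2:**
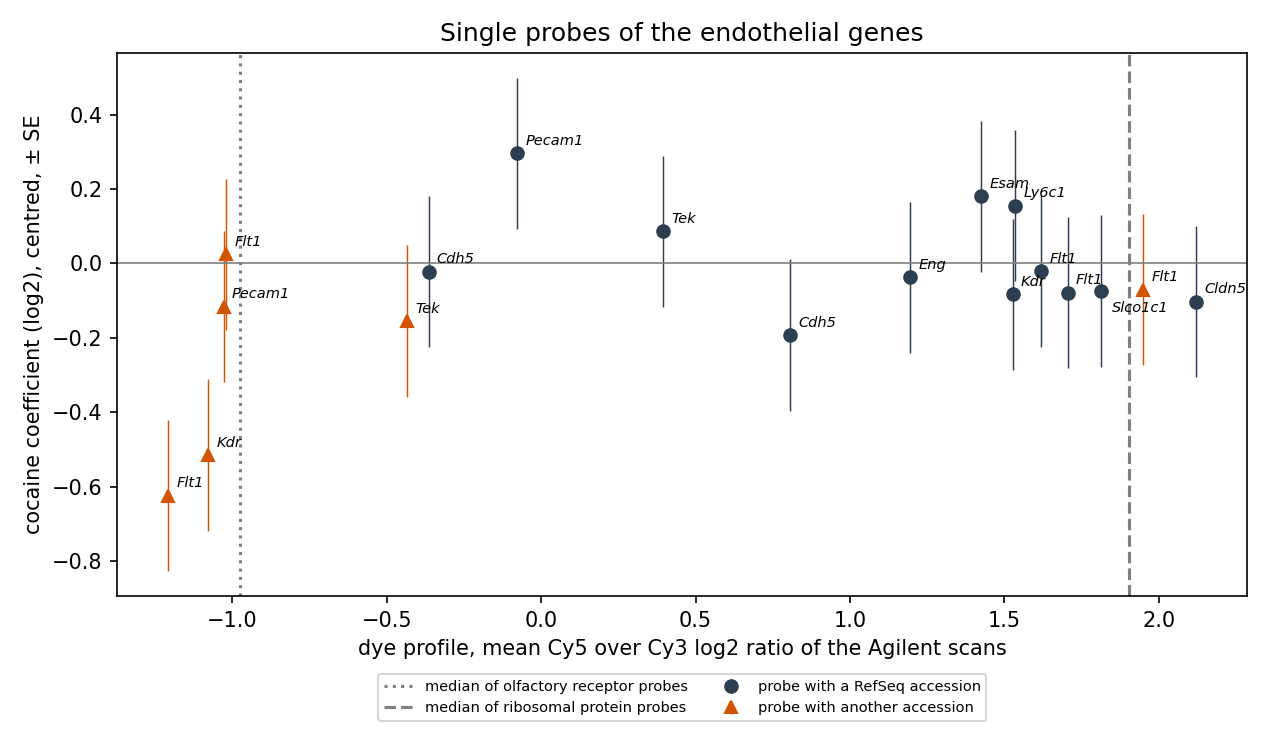
Centred cocaine coefficient with its standard error (vertical axis, log2) of each of the 18 probes of the endothelial genes against the probe's dye profile (horizontal axis, log2 of Cy5 over Cy3); vertical lines mark the medians of olfactory receptor probes (-0.97) and of ribosomal protein probes (1.90). The 2 probes with the lowest coefficients, of Flt1 and Kdr, also have the lowest dye profiles, and the probes at 1 and above lie between -0.10 and 0.18.

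Tek encodes Tie2, the receptor of the angiopoietins, which keeps vessels quiescent. Its ratios after centring were -0.23 and -0.24 with cocaine in Cy5 and 0.03 and 0.30 with saline in Cy5, and the coefficient was -0.03 ± 0.17 (limma adjusted p = 0.985). The RefSeq probe NM_013690 of Tek stood at 0.09 and the clone probe AK053336 at -0.15, each with a standard error of 0.20. In dye-profile values Tek stood at -0.04 ± 0.10. Its interval there, -0.29 to 0.21, still holds changes of modest size in either direction.

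Eng encodes endoglin, a coreceptor of the transforming growth factor beta family on endothelial cells. It had 1 probe, with centred ratios of 0.81 and 0.91 with cocaine in Cy5 and -1.04 and -0.83 with saline in Cy5, a dye difference with no overlap. The treatment coefficient of Eng was -0.04 ± 0.17 (limma adjusted p = 0.982). In dye-profile values it stood at 0.09 and -0.17 with cocaine in Cy5 and at -0.52 and -0.001 with saline in Cy5, so the lowest pair was saline in Cy5 replicate 1, and the coefficient was -0.15 ± 0.13 (limma adjusted p = 0.778).

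Among the junction genes, Cldn5 shifted most between normalizations. Claudin-5, its product, is the main tight junction claudin of the blood-brain barrier. Its centred ratios were 1.03 and 1.59 with cocaine in Cy5 and -1.47 and -1.57 with saline in Cy5. The dye coefficient of 1.41 was the largest of the 10 members, and its probe, for NM_013805, ranked at percentile 98.1 of the dye profile among named probes. The cocaine coefficient of Cldn5 was -0.10 ± 0.18 after centring (95% interval -0.47 to 0.27, limma adjusted p = 0.949) and -0.30 ± 0.11 in dye-profile values (limma adjusted p = 0.67, unadjusted p = 0.0409). The dye-profile ratios behind it were -0.48 and -0.35 with cocaine in Cy5, and -0.38 and 0.01 with saline in Cy5. Saline in Cy5 replicate 2 thus lay at 0 and the other 3 pairs below it.

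Cdh5 encodes VE-cadherin, the cadherin of endothelial adherens junctions. Its centred ratios were -0.27 and 0.045 with cocaine in Cy5 and -0.22 and 0.01 with saline in Cy5, overlapping between orientations, with a coefficient of -0.11 ± 0.17 (limma adjusted p = 0.944). The dye-profile ratios of Cdh5 were -0.33 and -0.08 with cocaine in Cy5 and -0.19 and 0.07 with saline in Cy5, with a coefficient of -0.13 ± 0.11 (limma adjusted p = 0.767). The small dye difference after centring was again an average. The 2 Cdh5 features share the accession NM_009868 and had dye coefficients of 0.45 and -0.46. Their cocaine coefficients were -0.19 ± 0.20 and -0.02 ± 0.20.

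Esam encodes an immunoglobulin-like adhesion molecule at endothelial tight junctions, and it had the highest coefficient of the 10 after centring. Pecam1 stood higher in dye-profile values and with RefSeq-accession probes only. Under several other alternatives Esam was not the highest either, as on Agilent scans only, at 0.07 against 0.15 for Ly6c1. The centred ratios of Esam were 0.87 and 1.32 with cocaine in Cy5 and -0.86 and -0.61 with saline in Cy5, and the coefficient was 0.18 ± 0.17 (limma adjusted p = 0.912). It shrank to 0.05 ± 0.13 in dye-profile values, where saline in Cy5 replicate 2 stood at 0.41 and the other 3 pairs between -0.22 and 0.03.

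Pecam1, which encodes the adhesion molecule CD31 of endothelial cells, platelets and leukocytes, was the member that leaned to Cy3. Its centred ratios were -0.60 and -0.70 with cocaine in Cy5 and 1.10 and 0.56 with saline in Cy5. The coefficient was 0.09 ± 0.18 (limma adjusted p = 0.959). Both its probes had a dye profile below 0, and their cocaine coefficients had opposite signs, 0.30 ± 0.20 for NM_008816 and -0.12 ± 0.20 for AK031380. In dye-profile values Pecam1 stood at -0.19 and -0.09 with cocaine in Cy5, against 0.72 and 0.05 with saline in Cy5, a spread wider than that of any other member, with a coefficient of 0.12 ± 0.14 (limma adjusted p = 0.826).

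Slco1c1 encodes the carrier that brings thyroxine into brain endothelial cells and astrocytes. Its centred ratios were 0.89 and 1.62 with cocaine in Cy5 and -1.17 and -1.64 with saline in Cy5, for a coefficient of -0.07 ± 0.18 (limma adjusted p = 0.968). The dye-profile ratios were -0.32 and -0.02 with cocaine in Cy5 and -0.29 and -0.32 with saline in Cy5, all below 0, with a coefficient of -0.24 ± 0.10 (limma adjusted p = 0.67). Cocaine in Cy5 replicate 2 lay near 0 and the other 3 pairs lay close together.

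Ly6c1 encodes a small surface protein abundant on brain endothelium. Its centred ratios were 1.07 and 1.53 with cocaine in Cy5 and -0.83 and -1.15 with saline in Cy5, and the coefficient was 0.16 ± 0.18 after centring (limma adjusted p = 0.925) and 0.02 ± 0.09 in dye-profile values. Its near-identical paralog Ly6c2, a monocyte gene, gave 0.27 ± 0.18 after centring (limma adjusted p = 0.866). Signal from these paralogs may be shared between their probes, so neither value belongs to 1 gene with certainty.

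**Figure D3:**
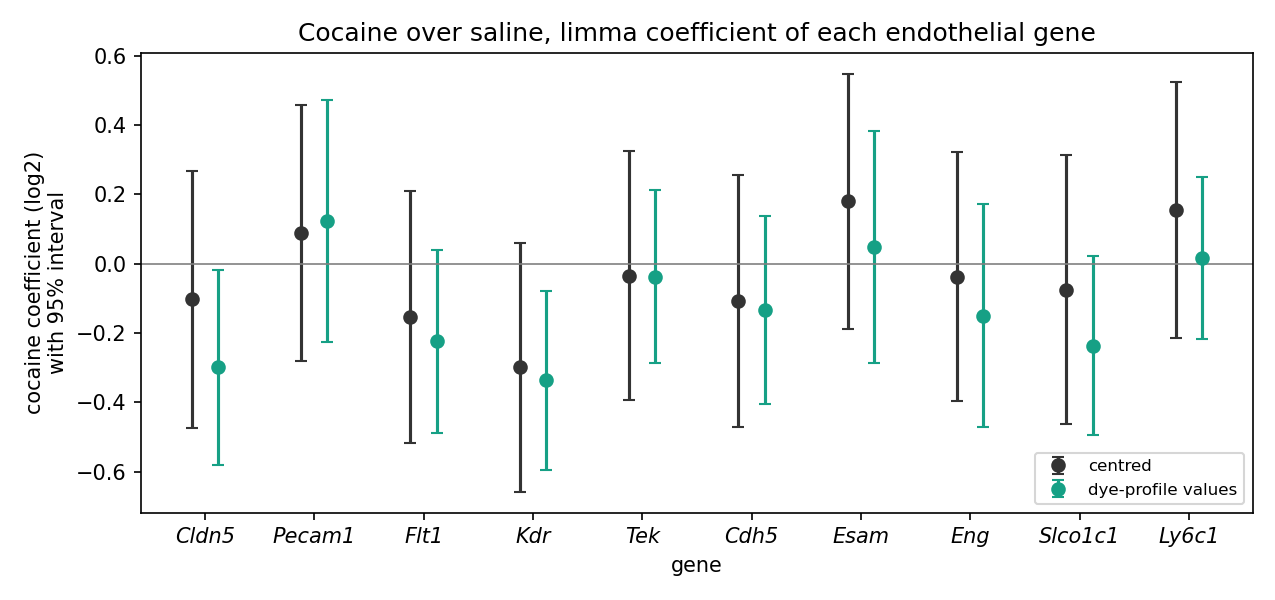
Cocaine coefficient (vertical axis, log2 of cocaine over saline) of each endothelial gene with its 95% interval from limma over 4 hybridisations, after centring (black) and in dye-profile values (green). Every interval after centring includes 0, and in dye-profile values those of Kdr and Cldn5 lie below 0 before any adjustment for the 31334 genes tested.

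The scanner changed how large the dye difference looked. For the 9 member probes with a dye profile above 1, the Agilent ratio exceeded the Axon ratio by a median of 0.97 and 0.85 with cocaine in Cy5, and fell below it, at a median of -0.92 and -1.11, with saline in Cy5. All 9 went that way in each hybridisation, but the choice of probes partly sets that direction. The dye profile is made from the Agilent scans alone, so picking probes high on it favours a larger Agilent ratio. For the other 9 member probes these medians lay between -0.25 and 0.40. The treatment coefficient of Kdr was -0.07 on Agilent scans alone and -0.53 on Axon scans alone, and that of Flt1 was -0.06 on Agilent scans and -0.25 on Axon scans. That of Cldn5 was -0.10 on Agilent scans and -0.11 on Axon scans. On Axon scans 0 of 10 members had a dye effect past the threshold, where 12.5% of all genes did, and on Agilent scans 7 of 10 had one, where 86.6% did.

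Genes that work with the members did not pass the test either, and values of single genes on these lists are after centring unless stated. Of 32 other endothelial identity genes 30 were measured and 0 were called in each direction (limma adjusted p at least 0.834), where 0.00319% of all genes were called higher and 0.0223% lower. Their median was 0.01 after centring and -0.08 in dye-profile values, with 13 and 22 of 30 below 0. The smallest p belonged to Ptprb, a phosphatase that restrains Tie2 and VE-cadherin signalling, at 0.36 ± 0.18, and to Robo4, a guidance receptor of endothelium, at 0.28 ± 0.17. In dye-profile values Ptprb stood at 0.16 and Robo4 at 0.13. Tie1, the partner of Tie2, stood at 0.09 ± 0.17, and Vwf, which encodes von Willebrand factor, at -0.02 ± 0.18.

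The ligands and partners of these receptors gave the same count. None of 30 measured genes for VEGF, angiopoietin and TGF-beta signalling passed (median 0.02 after centring, -0.06 in dye-profile values). Angptl4, a secreted inhibitor of lipoprotein lipase that also acts on vessels, stood at 0.68 ± 0.19 (limma adjusted p = 0.412) and in dye-profile values at 0.56. Tgfb1, a ligand of the receptor complex that endoglin joins, stood at -0.58 ± 0.17 (limma adjusted p = 0.534) and in dye-profile values at -0.52. The orientations differed there, with Tgfb1 at -1.12 and -1.04 with cocaine in Cy5 and at 0.20 and -0.13 with saline in Cy5. Vegfa, the ligand of Kdr and Flt1, stood at 0.01 ± 0.17, and Acvrl1, the receptor that works with endoglin, at -0.17 ± 0.18.

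Junction partners and carriers had medians close to 0. Of 23 measured junction genes 0 passed, with medians of 0.02 after centring and -0.04 in dye-profile values. Occludin (Ocln) stood at -0.02 ± 0.17 and the scaffold gene Tjp1 at -0.02 ± 0.17, while cingulin (Cgn) at -0.32 ± 0.18 and Jam2 at 0.26 ± 0.18 had the smallest p. Of 21 measured blood-brain barrier transporters 0 passed, with medians of 0.07 and 0.03. Among them the glucose carrier Slc2a1 stood at 0.22 ± 0.17, the lipid carrier Mfsd2a at 0.25 ± 0.18, and the amino acid carriers Slc38a3 and Slc7a5 at 0.33 ± 0.17 and 0.28 ± 0.17. In dye-profile values these carriers lay nearer to 0, with Slc2a1 at 0.01, Mfsd2a at 0.08, Slc38a3 at 0.18 and Slc7a5 at 0.15.

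In the 16 genes measured for Wnt signalling at the barrier, which induces and keeps the barrier state, 0 passed and the medians were 0.03 after centring and -0.07 in dye-profile values. Wnt7a, a neural ligand of that pathway, stood at 0.39 ± 0.20, and Fzd4, an endothelial receptor for it, at 0.25 ± 0.18. Thyroid hormone genes, set beside the carrier Slco1c1, had medians of 0.02 and 0.04 over 12 genes with 0 passing. Crym, which encodes a cytosolic thyroid hormone binding protein, stood at 0.69 ± 0.20 (limma adjusted p = 0.493) and Nrgn, a neuronal gene that responds to the hormone, at -0.47 ± 0.20 (limma adjusted p = 0.792). In dye-profile values Crym stood at 0.50 and Nrgn at -0.72. For leukocyte adhesion and endothelial activation 0 of 17 passed and the medians were -0.08 and -0.14, with Nfkbia at 0.32 ± 0.17 and the chemokine gene Ccl2 at -0.31 ± 0.17.

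Other cells of the vessel wall were looked at in the same way. Mural cells, the pericytes and smooth muscle cells around the endothelium, had medians of 0.08 after centring and -0.05 in dye-profile values over 17 genes. Pdgfrb, their receptor for platelet-derived growth factor, stood at 0.11 ± 0.18 and the pericyte gene Rgs5 at -0.02 ± 0.18. The smallest p belonged to Zic1 at -0.33 ± 0.21 and Des at -0.23 ± 0.18. Fibroblasts of vessels and meninges had medians of -0.09 and -0.10 over 12 genes (Ptgds at -0.40 ± 0.19, Fmod at -0.31 ± 0.18), and the vascular basement membrane 0.07 and 0.01 over 12 genes (Lamb1 at 0.31 ± 0.18, Lamb2 at 0.30 ± 0.18). Blood cells had medians of -0.07 and -0.12 over 14 genes, with the platelet gene Pf4 at -0.50 ± 0.18 (limma adjusted p = 0.738) and S100a9 at -0.30 ± 0.17. In each of these 4 lists 0 genes passed. In dye-profile values blood cells had medians of -0.24 and -0.05 with cocaine in Cy5 and -0.08 and 0.02 with saline in Cy5, where the endothelial genes stood at -0.25 and -0.11 with cocaine in Cy5 and at -0.24 and 0.004 with saline in Cy5. Other endothelial identity genes stood at -0.03 and -0.09 with cocaine in Cy5 and at -0.18 and -0.02 with saline in Cy5. Leukocyte adhesion and endothelial activation genes stood at -0.18 and -0.03 with cocaine in Cy5 and at -0.12 and -0.07 with saline in Cy5. The part of blood cells in the endothelial values was not tested.

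**Figure D4:**
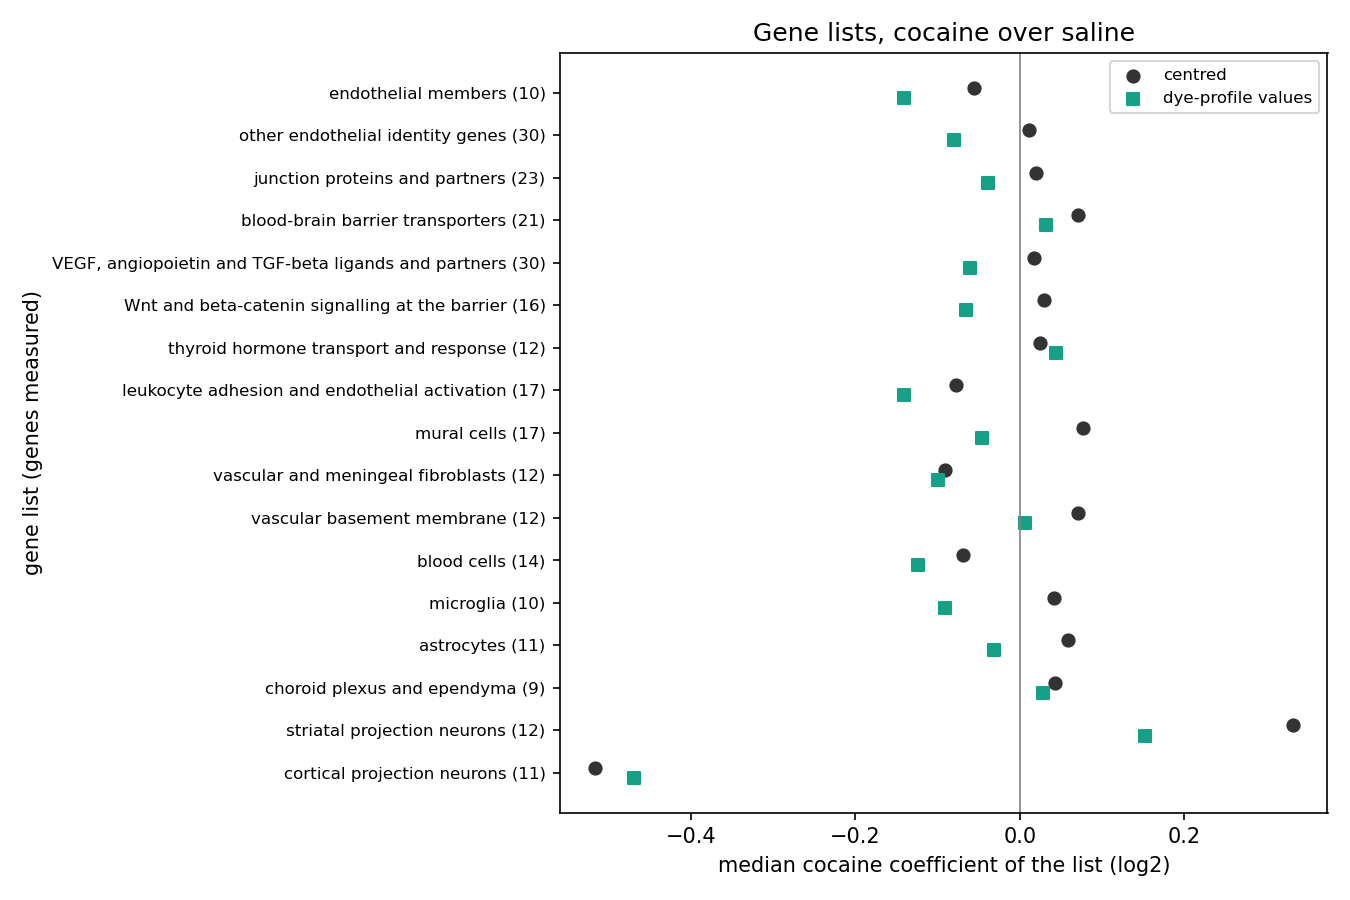
Median cocaine coefficient (horizontal axis, log2 of cocaine over saline) of the endothelial genes, in the top line, and of 16 other gene lists, after centring (circles) and in dye-profile values (squares); numbers in brackets are genes measured. The endothelial median of -0.06 lies among the other vascular lists after centring, while in dye-profile values, at -0.14, it lies level with leukocyte adhesion and endothelial activation (-0.14) and below the other vascular lists, and the lists of cortical (-0.52 and -0.47) and striatal (0.33 and 0.15) projection neurons lie farthest from 0.

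Lists of the other cells in the tissue bracket these values. Microglia had medians of 0.04 after centring and -0.09 in dye-profile values over 10 genes (Trem2 at 0.23 ± 0.17, Tmem119 at 0.10 ± 0.17), astrocytes 0.06 and -0.03 over 11 (Aldh1l1 at 0.33 ± 0.18, Aldoc at 0.23 ± 0.18), and choroid plexus and ependyma 0.04 and 0.03 over 9 (Clic6 at 0.37 ± 0.17, Folr1 at -0.25 ± 0.17). No gene of these 3 lists passed. The widest medians belonged to neurons. Striatal projection neuron genes stood at 0.33 and 0.15 over 12 genes, with Ppp1r1b at 0.69 ± 0.19 and Adcy5 at 0.61 ± 0.20, of which 0 passed. Cortical projection neuron genes stood at -0.52 and -0.47 over 11 genes, of which Tbr1, at -1.45 ± 0.18, Nrn1, at -1.71 ± 0.24, and Neurod6, at -1.13 ± 0.19, fell (limma adjusted p between 0.00602 and 0.0375). In dye-profile values these 3 stood at -1.44, -1.76 and -1.07 and did not pass (limma adjusted p = 0.592 for Tbr1 and 0.67 for Nrn1 and Neurod6). These neuronal lists move with the same 4 pairs, which may differ in the tissue they hold, and the share of that difference in the endothelial values was not tested. In all, 3 of 257 measured entries on the 16 other lists passed after centring, where 0.0255% of all genes did. Ttr and Gja1 stand on more than 1 list and count in each.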

How the data were processed

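The authors deposited log2 ratios of the 2 channels, 44290 rows in each of 8 scans. How images were read, background corrected and ratios normalized was not given in sources used here, and the values themselves gave the log base. Ratios carry no signal level, so detection of a probe could not be judged and the number of arrays limits the precision. Between 4 and 37 values per scan at a stop of 16.61 were set missing.

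Rows were matched to probes through a staggered grid chosen in earlier work on these data, on which every gene name rests: the first 2 probes of an accession correlated at r = 0.505 over 5786 accessions, against -0.019 row by row. Between hybridisations of the same orientation the scanner difference (Axon minus Agilent) had correlations of 0.514 and 0.517, and across orientations of -0.542 to -0.492, so columns were read as already turned to cocaine over saline. Of 32042 named probes 31906 matched the gene table.

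Scans were centred, probes averaged per symbol and scans averaged per hybridisation. Repeated spots could not be identified, so none were merged beforehand. Genes with a value in every hybridisation were fitted with limma 3.58.1 (R 4.3.3), with cocaine and dye coefficients, 2 residual degrees of freedom, adjusted over 31334 genes, two-sided. In the fit of single probes after centring limma took 1 spread for all, while in dye-profile values the spread differed between probes. Dye-profile values used loess with span 0.3 and 4 iterations. The script was tested on simulated data.

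Members, lists and tests were chosen with earlier results of these data known. Named were all members, per other list the genes past the threshold or else the 2 of smallest p, and a fixed panel, of which 1 gene is not reported here. The p-values measure only the spread between these hybridisations, and limma pooled that spread over genes. After centring, 15.9 prior degrees of freedom, drawn from all genes, stood beside 2 residual ones of each gene. In dye-profile values the prior held 3.35. The standard errors are therefore not each gene's own scatter between pairs.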

Additional observations from a re-analysis of the deposited data

Results flagged for a closer look

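Slco1c1 had 1 hybridisation far from the others in dye-profile values. Cocaine in Cy5 replicate 2 stood at -0.02 and the other 3 between -0.32 and -0.29, a gap of 0.88 of the whole range, above Dixon's critical value for 4 values. Of 10 genes tested this way 1 stood apart, and chance gives about 1 in 20.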

How the results depend on the processing

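In all 15 alternatives, 2 of them chosen after seeing the data, limma called 0 of the 10 endothelial genes (lowest adjusted p 0.655), and their median stayed within 1 residual SD (0.135) of -0.06, from -0.17 with quantile normalization to 0.01 without cocaine in Cy5 replicate 1. Of 150 repeated member values 141 kept their sign, but part of them could not turn. Dropping the dye term, using a robust prior and keeping genes with a value in all 8 scans left every member's coefficient unchanged. The median of the probes could move only Flt1. Keeping RefSeq-accession probes only could not move members that had no other probes. Without 1 hybridisation, sign turned for Cldn5 (-0.24 to 0.038, the last without cocaine in Cy5 replicate 1), Slco1c1 (-0.26 to 0.11, without cocaine in Cy5 replicate 1 or, at 0.045, saline in Cy5 replicate 2), Pecam1 (-0.045 to 0.22), Tek (-0.10 to 0.034) and Eng (-0.090 to 0.015), these 3 without saline in Cy5 replicate 1. It also turned for Eng on Agilent scans only (0.034) and for Tek with RefSeq-accession probes only (0.086, and 0.046 with these in dye-profile values). Single probes opposed their gene's average for Pecam1 (-0.12), Flt1 (0.0245) and Tek (0.086). The cause was not tested.

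Over all genes the count called was 0 in dye-profile values, with scans scaled to one spread, with quantile normalization, with no dye term and on Axon scans only (2272, 1755, 2095, 24 and 1585 genes at an unadjusted limma p under 0.05), 20 on Agilent scans only, 30 with the median of the probes, 16 with a robust prior, 76 with RefSeq-accession probes only (0 in dye-profile values, 2164 unadjusted), and 66 to 288 without 1 hybridisation, where limma took 1 spread for all genes. The RefSeq-accession filter acted only on probes that carry 1 gene symbol. The 12201 rows without a symbol stayed in whatever their accession, so over all genes that setting is not limited to RefSeq accessions. The count of members with a dye effect was 0 in dye-profile values, with or without the other probes, since that normalization removes it, and 0 on Axon scans only, where 12.5% of all genes had one. The ratios are already pairs of 1 cocaine and 1 saline sample.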
